A study of Mus musculus with 6 samples.

Results

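The genes described here are 48 interferon-induced effector genes, whose proteins act once interferon has been sensed, measured by RNA sequencing in the mouse cell line mDE6. They were chosen by name: the IFIT and IFITM families, the enzymes that attach and remove the ubiquitin-like protein ISG15, the GBP and IRG families of GTPases, interferon-induced PARP and Schlafen proteins and further antiviral proteins. The OAS genes, RNA sensors, IRF and STAT factors and class I presentation were left out of the list. The list was made with earlier results of these data known, so the counts below are not independent of them. Of the 48 genes, 46 were found among the 22032 genes of the deposited table and 45 had a mean of at least 1 CPM (reads scaled by the authors to library size), the level required for testing. Slfn2 and Epsti1 were not found in the table, and Slfn5 fell below that level. No gene in the table had fewer than 6 reads over all libraries, so an absent gene may still have had a few reads.

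The series compared mDE6 cells carrying a control short hairpin RNA (shControl, 3 libraries) with mDE6 cells carrying a hairpin against Arl4c (shArl4c, 3 libraries), which encodes an ARF-like small GTPase. According to its title, the series asks about Arl4c in the developing tooth germ and in osteoblastic differentiation. The columns of the table name the control hairpin after luciferase and number the libraries 1, 2 and 3 in shControl and 2, 3 and 4 in shArl4c. These numbers are used below as names only, and values per library are given in that order. An error written after ± is the SD over 3 libraries. No cytokine or other treatment is named in the labels for either group, and they do not tell apart several hairpins against Arl4c, so a loss of Arl4c and anything else the hairpin does cannot be told apart. Whether the libraries of a group came from separate cultures is not stated. The p-values below thus reflect the spread of these samples alone, which may be technical.

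In most cells these genes are read at a low level until interferon binds its receptor. The receptor's JAK kinases then activate transcription factors that bind the interferon-stimulated response element in the promoters of these genes, while the response to interferon gamma runs through the gamma-activated site. The proteins then made bind foreign RNA, block entry, growth or release of viruses, tag proteins with ISG15, attack the membrane around intracellular microbes or dampen the response again.

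Each library held 12316770 to 14976113 reads, recovered from the deposited values, and a single read corresponded to between 0.0672 and 0.0827 CPM. The targeted gene, Arl4c, was 2.94-fold lower in shArl4c, with 20.7, 21.05 and 20.1 CPM in the control libraries and 6.75, 7.42 and 6.89 CPM in the others (log2 difference -1.43, SE 0.09, limma adjusted p = 2.08e-10). Read counts of library pairs, compared by chi-square divided by its degrees of freedom, gave 1.54 to 5.74 inside a group and 28.1 to 32.7 across groups. The values of 5.74 and 4.87, the highest inside a group, belonged to shArl4c 3, which stood apart from shArl4c 2 and 4. The labels give no tissue for mDE6. All 7 listed mesenchymal markers passed the filter, and they summed to 30488 to 31899 CPM in shControl and to 18499 to 19338 CPM with the Arl4c hairpin. Col1a1 (0.570-fold), Col1a2 (0.555-fold) and Prrx1 (0.517-fold) fell, Pdgfra (1.69-fold) and Pdgfrb (1.12-fold) rose, and Vim (0.961-fold) and Twist1 (1.06-fold) did not pass, each given as the ratio of shArl4c to shControl. Their part in the members' change was not tested. The 5 epithelial markers in the table, Cdh1 and keratins among them, summed to 1.03 to 1.65 CPM in shControl and 1.20 to 2.25 CPM in shArl4c.

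Across the 45 tested members, 43 rose in shArl4c, none fell and 2 (Ifitm2 and Isg20) did not pass the test. The test was limma on log2(CPM + 1) over all 14740 genes that passed this filter on the mean, with Benjamini-Hochberg adjustment over all of them and a threshold of 0.05. Ifitm1 and Mx1 had shControl means under 1 CPM and passed the filter only through their shArl4c levels. Their calls as higher are thus not independent of the filter, and the counts here include them. Of all tested genes, 18.9% were called higher and 18.0% lower, 36.9% in all. The median log2 difference of the members was 0.94, against 0.01 over all tested genes, and 21 members rose by at least 1 on the log2 scale, a size and call reached by 1.26% of all tested genes. Differences on the log2 scale are of CPM + 1, shArl4c minus shControl. The added 1 makes changes of low genes look smaller than their ratios. The shArl4c libraries all lay above the shControl libraries in 42 of the 45 members, against 24.3% of all tested genes, while the groups did not overlap in either direction in 46.8% of them. No member was lower at an unadjusted p under 0.05 in limma, and none was called lower by edgeR's quasi-likelihood test or by DESeq2 on the recovered reads, which called 18.8% and 14.3% of all tested genes lower (36.5% and 27.9% in either direction). These tools called 43 and 41 of the 45 members higher, against 17.7% and 13.6% of all tested genes. In bulk RNA, more cells with a response and more RNA per cell cannot be told apart.

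**Figure D1:**
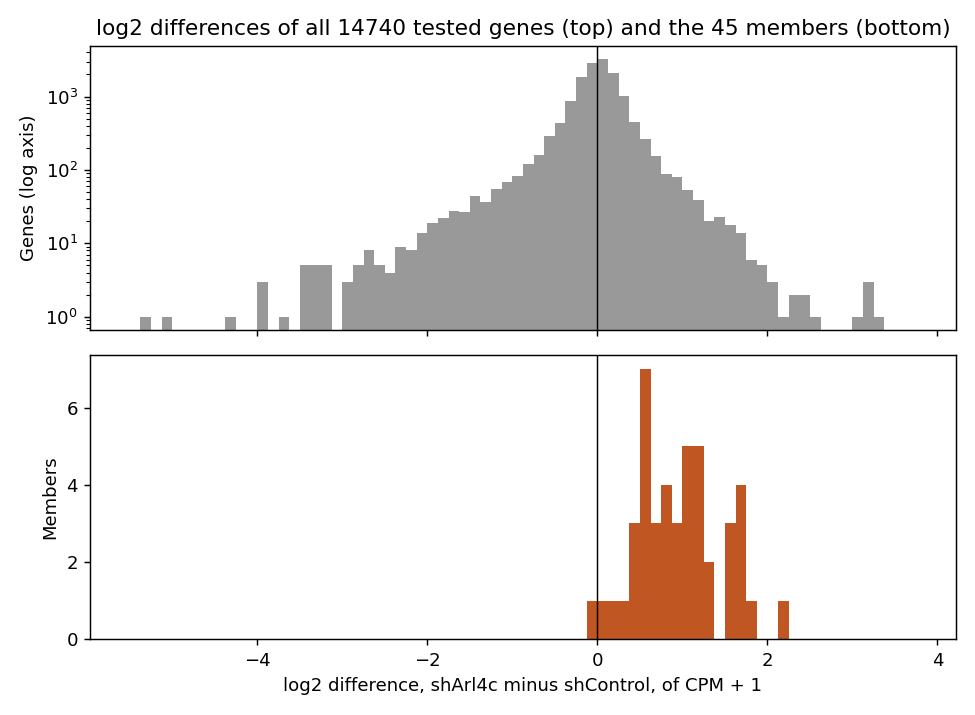
Number of genes (vertical axes, the top one logarithmic) by log2 difference of CPM + 1, shArl4c minus shControl (horizontal axis), for all 14740 tested genes (top) and the 45 tested members (bottom). The members lie almost wholly to the right of 0, with a median of 0.94, while the median of all tested genes is 0.01.

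Upstream sequence was taken from RefSeq promoters of build GRCm38.p6, an older build than the GRCm39 of the counts, so the coordinates below are those of GRCm38.p6. Entries were matched for 39 of the 48 members. Ifi27, Usp18, Iigp1, Mx1, Mx2, Rtp4, Parp9, Parp14 and Zbp1 had none. The 250 bases before the start were searched on both strands for the core of the interferon-stimulated response element, GAAANNGAAA, and for the core of the gamma-activated site, TTCNNNGAA. The first was present in 16 of 39 members (41.0%) and in 3.46% of the 27025 genes with an entry. The second was present in 7 of 39 members (17.9%) and in 8.13% of all genes with an entry. The motifs overlapped in 1 member and in 17 genes of all. The 25 element cores of the members began 19 to 188 bases before the start, with a median of 72, and 13 lay on the strand of the gene and 12 on the other. A match is a description of these letters, not a measured binding site, and a gene without a match holds only no such letters in this window.

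The sequences below, read 5′ to 3′ on the strand of the gene and ending at the base before the start, show how the element is placed in 8 members that rose. Capitals mark each element core, which reads TTTCNNTTTC where it lies on the opposite strand. Overlapping cores join into a single run of capitals, as in Isg15 with 3 cores and in Bst2 and Gbp3 with 2. Isg15 spans chr4:156200819-156200958 (minus strand), Ifit1 chr19:34640749-34640888 (plus strand), Rsad2 chr12:26456453-26456612 (minus strand), Bst2 chr8:71537473-71537632 (minus strand), Gbp3 chr3:142559924-142560043 (plus strand) and Tgtp1 chr11:48992247-48992366 (minus strand). A further Gbp3 promoter in RefSeq, whose last bases before the start span chr3:142560236-142560355 (plus strand), held no core in its window and is not printed.
Isg15: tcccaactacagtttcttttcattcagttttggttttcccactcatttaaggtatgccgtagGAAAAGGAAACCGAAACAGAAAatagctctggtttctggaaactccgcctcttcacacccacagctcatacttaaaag
Ifit1: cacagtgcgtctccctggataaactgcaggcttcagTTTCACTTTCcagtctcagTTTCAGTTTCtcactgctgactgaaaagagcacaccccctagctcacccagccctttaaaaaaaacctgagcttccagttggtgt
Rsad2: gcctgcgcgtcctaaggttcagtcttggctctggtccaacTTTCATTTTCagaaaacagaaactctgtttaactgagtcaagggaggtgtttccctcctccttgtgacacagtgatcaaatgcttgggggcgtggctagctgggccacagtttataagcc
Bst2: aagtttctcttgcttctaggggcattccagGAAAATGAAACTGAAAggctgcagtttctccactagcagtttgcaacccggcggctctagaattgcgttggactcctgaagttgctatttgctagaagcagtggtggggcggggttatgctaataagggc
Gbp3: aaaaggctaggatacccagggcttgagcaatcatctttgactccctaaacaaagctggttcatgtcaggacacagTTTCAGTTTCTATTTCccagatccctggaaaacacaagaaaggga
Tgtp1: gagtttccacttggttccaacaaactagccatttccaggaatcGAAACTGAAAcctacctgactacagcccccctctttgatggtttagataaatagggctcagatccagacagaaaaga

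Ifit3 (chr19:34583329-34583528 (plus strand)) and Ifit3b (chr19:34607757-34607956 (plus strand)) are shown as a pair because their promoters are near copies. Set in register by their elements, 188 of 218 bases were identical (86.2%), and both elements lay 32 bases farther from the start in Ifit3b.
Ifit3: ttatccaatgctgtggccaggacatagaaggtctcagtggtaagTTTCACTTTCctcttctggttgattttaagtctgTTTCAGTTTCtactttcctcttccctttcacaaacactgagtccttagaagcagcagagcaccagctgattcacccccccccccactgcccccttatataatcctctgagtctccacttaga
Ifit3b: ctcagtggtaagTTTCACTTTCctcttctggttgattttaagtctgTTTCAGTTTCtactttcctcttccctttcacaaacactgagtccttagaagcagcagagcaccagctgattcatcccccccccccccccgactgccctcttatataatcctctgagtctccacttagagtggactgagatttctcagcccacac

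Members with an element core in the window and members without one both rose. Of 15 tested members with a core, 14 rose, with a median log2 difference of 1.07 and a range of 0.11 to 2.21. Of 21 tested members with an entry and no core, 20 rose, with a median of 0.60 and a range of -0.10 to 1.67. Cmpk2, Sp100 and Samd9l were among those without a match. The difference between these medians was not tested, since genes are not replicates and their levels differ too.

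The IFIT proteins bind foreign RNA, and Ifit1 recognises RNA whose cap lacks the methylation of host messages. All 7 tested IFIT and IFI members rose, by a median of 0.75 on the log2 scale. Ifit1 was measured at 20.3, 21.8 and 22.8 CPM in the shControl libraries and 50.7, 51.3 and 46.4 CPM in the shArl4c libraries. Every shArl4c library held more than 2 times the level of every shControl library, and the mean rose 2.29-fold (log2 difference 1.16, SE 0.07, limma adjusted p = 6.01e-11). Its relative Ifit3 stood at 8.64, 9.01 and 9.93 CPM in the shControl libraries and 25.05, 23.4 and 18.7 CPM in the shArl4c libraries, and Ifit3b at 4.36, 4.17 and 4.22 CPM in the shControl libraries and 9.29, 8.17 and 8.57 CPM in the shArl4c libraries. The groups did not overlap for either, with ratios of 2.44-fold and 2.04-fold. Ifit2, the next gene of the same cluster, rose by less, 1.39-fold from a mean of 23.7 ± 0.791 to 32.9 ± 0.885 CPM (limma adjusted p = 1.35e-05).

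Reads of Ifit3 and Ifit3b are hard to divide between them. Of all 50-base stretches of the Ifit3 transcripts in GENCODE vM21, 51.2% also occur in Ifit3b, and 44.5% of those of Ifit3b occur in Ifit3. Their sum, which does not depend on that division, was 12.99, 13.2 and 14.1 CPM in the shControl libraries and 34.3, 31.6 and 27.3 CPM in the shArl4c libraries, a ratio of means of 2.31-fold. In CPM, without regard to gene length, the highest member of this role was Ifi44, at 53.7, 52.9 and 56.9 CPM in the shControl libraries and 94.96, 91.5 and 90.8 CPM in the shArl4c libraries. Its groups did not overlap, and it rose 1.70-fold (log2 difference 0.75, SE 0.05, limma adjusted p = 3.72e-10). Ifi27, a small hydrophobic membrane protein, rose 1.53-fold from a mean of 45.5 ± 1.98 to 69.5 ± 2.46 CPM, and Ifi35 1.36-fold from a mean of 19.9 ± 0.842 to 27.2 ± 1.10 CPM. The adjusted p of Ifi35 in limma was 7.52e-05, and 16.8% of its exon bases in GENCODE vM21 overlap Gm11626 on the opposite strand.

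ISG15 is a ubiquitin-like protein that Uba7 activates and that Usp18 removes again. All 4 members of this pathway rose. Usp18, which also curbs signalling at the interferon receptor, changed the most: it was measured at 5.17, 5.58 and 6.12 CPM in the shControl libraries and 22.4, 17.99 and 19.4 CPM in the shArl4c libraries, 3.54-fold higher in the mean (log2 difference 1.66, SE 0.11, limma adjusted p = 2.48e-10). The lowest shArl4c library held 2.94 times the highest shControl library. Isg15 itself stood at 11.9, 12.1 and 11.6 CPM in the shControl libraries and 25.3, 20.7 and 25.4 CPM in the shArl4c libraries, about 2.01-fold higher, with shArl4c 3 the lowest of its group but above all of shControl. Uba7 rose 1.72-fold from a mean of 12.1 ± 0.969 to 20.9 ± 2.30 CPM. Trim25, a ubiquitin ligase that acts on the RNA sensor RIG-I, was the most abundant of these genes in CPM, at 105, 104 and 106 CPM in the shControl libraries and 173, 158 and 167 CPM in the shArl4c libraries (log2 difference 0.65, SE 0.04, limma adjusted p = 5.63e-10). Herc6, which in the mouse attaches ISG15 to its targets, is described with the ubiquitin ligases below.

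The IFITM proteins sit in membranes and block the entry of viruses, and 2 of the 3 members rose, with a median of 0.17 on the log2 scale, the smallest of the roles with tested genes. Ifitm3 stood at 205, 205 and 212 CPM in the shControl libraries and 242, 219 and 243 CPM in the shArl4c libraries. The groups lay close together without overlapping, the lowest shArl4c library at 1.03 times the highest shControl library, and Ifitm3 rose 1.13-fold (log2 difference 0.17, SE 0.05, limma adjusted p = 0.00497). The call was lost in limma without trend and robust moderation (adjusted p = 0.0682). Ifitm2 stood at 135, 125 and 130.3 CPM in the shControl libraries and 146, 134 and 140.3 CPM in the shArl4c libraries. The groups overlapped, and Ifitm2 did not pass the test (log2 difference 0.11, 95% interval 0.01 to 0.21 before adjustment, limma adjusted p = 0.0726). Without shArl4c 3 it passed, at a log2 difference of 0.14 (limma adjusted p = 0.00363). Of the 50-base stretches of Ifitm2, 48.5% occur in other genes, most of them in Gm45717 and Gm11951, so its reads may be shared.

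Ifitm1 was near the limit of detection, with 6, 9 and 15 reads in the shControl libraries and 22, 21 and 16 in the shArl4c libraries, or 0.443, 0.605 and 1.24 CPM in the shControl libraries and 1.60, 1.57 and 1.22 CPM in the shArl4c libraries. The groups overlapped, since shControl 3 lay above shArl4c 4. Ifitm1 passed the filter of 1 CPM only through shArl4c, with a mean of 0.763 CPM in shControl and 1.47 CPM in shArl4c. Its call as higher (log2 difference 0.51, SE 0.19, limma adjusted p = 0.0471) was lost without shControl 1, shControl 2 or any single shArl4c library, with adjusted p of 0.214, 0.153, 0.123, 0.0603 and 0.0558 in limma. It was also lost with DESeq2 (adjusted p = 0.164), with a pseudocount of 5 (limma adjusted p = 0.0648) and in limma without trend and robust moderation (adjusted p = 0.0637). Ifitm2 and Ifitm3 together made up 25.8% of the summed CPM of the 46 members in shControl.

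Guanylate-binding proteins (GBPs) and immunity-related GTPases (IRGs) gather on the membranes that enclose bacteria and parasites inside a cell. All 7 members rose, by a median of 1.03 on the log2 scale, and in all 7 the shArl4c libraries lay above the shControl libraries. Gbp2 was measured at 26.4, 24.6 and 26.3 CPM in the shControl libraries and 55.2, 54.04 and 51.3 CPM in the shArl4c libraries, 2.08-fold higher (log2 difference 1.03, SE 0.06, limma adjusted p = 8.25e-11). Gbp3 had the largest change of the family, from 5.68, 6.25 and 6.37 CPM in the shControl libraries to 21.8, 18.5 and 19.6 CPM in the shArl4c libraries, 3.27-fold higher in the mean. Its neighbour Gbp7 rose 2.15-fold from a mean of 7.51 ± 0.853 to 16.1 ± 2.31 CPM. For Gbp7, 12.7% of the 50-base stretches of its transcripts occur in other genes, most of them in Gm43802, so its reads may be shared. The 3 Gbp genes lie in 1 cluster in RefSeq's gene order, and their ratios thus ran from 2.08-fold to 3.27-fold.

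Of the IRG genes, Irgm1, which regulates the other IRG proteins, was the highest in CPM, at 67.4, 62.9 and 71.9 CPM in the shControl libraries and 99.97, 95.2 and 93.97 CPM in the shArl4c libraries. It rose 1.43-fold (log2 difference 0.51, SE 0.05, limma adjusted p = 2.40e-07), the smallest estimate of the 7. Igtp rose 2.22-fold from a mean of 9.29 ± 0.466 to 20.7 ± 1.42 CPM and Iigp1 1.99-fold from a mean of 4.01 ± 0.280 to 7.997 ± 1.07 CPM (limma adjusted p = 1.05e-08 and 3.45e-05). Igtp shares 11.8% of its 50-base stretches with Irgm2. Tgtp1 stood at 9.74, 9.55 and 9.35 CPM in the shControl libraries and 21.7, 18.9 and 22.4 CPM in the shArl4c libraries, with no overlap between groups and a ratio of 2.20-fold. Its near copy Tgtp2 holds 79.4% of its 50-base stretches, had 8.49 ± 0.887 CPM in the control group against 10.2 ± 0.993 CPM, and did not pass the test (limma adjusted p = 0.104). The division of reads between Tgtp1 and Tgtp2 is uncertain. Their sum was 19.2, 17.9 and 17.04 CPM in the shControl libraries and 31.9, 30.1 and 31.6 CPM in the shArl4c libraries, a ratio of 1.73-fold.

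The Mx GTPases and 6 further proteins block steps of virus growth, and 7 of these 8 genes rose, by a median of 1.35 on the log2 scale over the 8. Rsad2, or viperin, makes a nucleotide that ends viral RNA chains, and it had the largest change of all members. It was measured at 1.70, 1.68 and 1.32 CPM in the shControl libraries and 10.5, 10.9 and 11.2 CPM in the shArl4c libraries, so the lowest shArl4c library held 6.20 times the highest shControl library. The mean rose 6.94-fold (log2 difference 2.21, SE 0.13, limma adjusted p = 1.06e-10). Cmpk2, a nucleotide kinase gene next to Rsad2 in the genome, stood at 1.33, 1.55 and 1.32 CPM in the shControl libraries and 6.39, 6.52 and 6.81 CPM in the shArl4c libraries and rose 4.70-fold (log2 difference 1.66, SE 0.14, limma adjusted p = 1.47e-08). Both were low in shControl, with 23, 25 and 16 reads of Rsad2 and 18, 23 and 16 reads of Cmpk2 in the 3 libraries.

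Bst2, or tetherin, holds budding viruses at the cell surface, and Samd9l limits translation during infection. Bst2 stood at 18.9, 22.6 and 18.9 CPM in the shControl libraries and 51.8, 51.2 and 57.9 CPM in the shArl4c libraries, 2.66-fold higher (log2 difference 1.37, SE 0.08, limma adjusted p = 3.99e-11). Samd9l had the smallest p of this role, at 17.6, 19.8 and 19.5 CPM in the shControl libraries and 48.6, 51.04 and 48.2 CPM in the shArl4c libraries, 2.60-fold higher (log2 difference 1.33, SE 0.07, limma adjusted p = 7.13e-12). The groups were far apart for both, with the lowest shArl4c library at 2.27 and 2.43 times the highest shControl library. Rtp4 rose 3.45-fold from a mean of 4.31 ± 0.187 to 14.9 ± 1.45 CPM. It shares 11.6% of the 50-base stretches of its transcripts with Gm45338, so its reads may be shared.

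The Mx genes encode dynamin-like GTPases that trap viral particles. Mx2 rose 2.73-fold from a mean of 2.96 ± 0.357 to 8.09 ± 1.64 CPM (limma adjusted p = 3.26e-06). Mx1 was among the lowest members, with 9, 9 and 7 reads in the shControl libraries and 17, 25 and 21 reads in the shArl4c libraries, and it rose 2.55-fold (log2 difference 0.66, SE 0.18, limma adjusted p = 0.00570). It passed the filter of 1 CPM only through shArl4c, with a mean of 0.616 CPM in shControl and 1.57 CPM in shArl4c. Isg20, an exonuclease that degrades RNA, was the exception of this role. It stood at 11.7, 15.1 and 15.6 CPM in the shControl libraries and 12.9, 11.9 and 14.5 CPM in the shArl4c libraries, with overlapping groups. The log2 difference was -0.10, with a 95% interval of -0.33 to 0.13 (limma adjusted p = 0.526), and none of the alternative fits called Isg20.

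**Figure D2:**
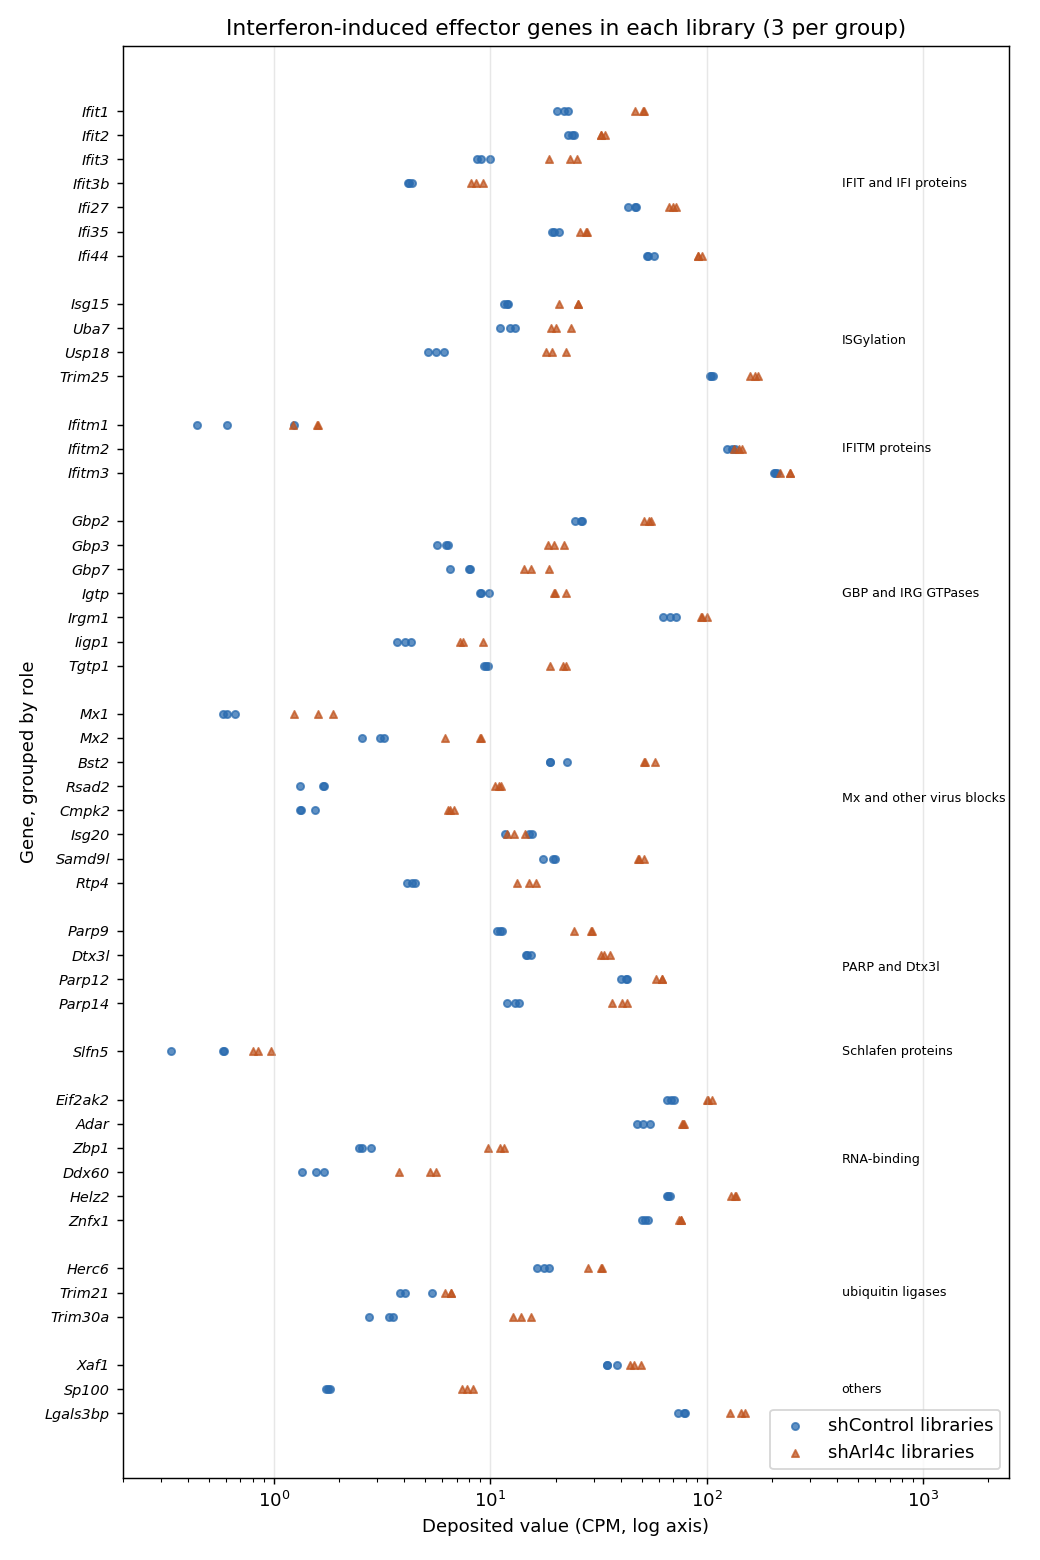
Deposited value of each of the 46 members in the table (horizontal axis, CPM, logarithmic), with 1 circle per shControl library and 1 triangle per shArl4c library, grouped by role. The triangles lie to the right of the circles in all genes apart from Ifitm1, Ifitm2 and Isg20, where the groups overlap.

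PARP proteins attach ADP-ribose to other proteins, and Parp9 works in a complex with the ubiquitin ligase Dtx3l. All 4 members rose. Parp14 was measured at 13.1, 11.97 and 13.6 CPM in the shControl libraries and 42.9, 40.5 and 36.6 CPM in the shArl4c libraries, 3.11-fold higher (log2 difference 1.56, SE 0.08, limma adjusted p = 7.13e-12), with the lowest shArl4c library at 2.70 times the highest shControl library. Parp14, Dtx3l and Parp9 are neighbours in RefSeq's gene order. Parp9 rose 2.51-fold from a mean of 11.05 ± 0.270 to 27.7 ± 2.84 CPM and Dtx3l 2.25-fold from a mean of 14.98 ± 0.430 to 33.8 ± 1.64 CPM, so the partners had similar ratios. In GENCODE vM21 their exons overlap on opposite strands over 458 bases, 9.40% of the exon bases of Parp9, and the sources used here do not give whether counting used the strand. Parp12, the most abundant of the 4 in CPM, stood at 42.9, 40.1 and 42.2 CPM in the shControl libraries and 61.9, 57.9 and 62.4 CPM in the shArl4c libraries and rose 1.46-fold (log2 difference 0.53, SE 0.06, limma adjusted p = 2.49e-07).

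Of the Schlafen genes, Slfn5 was listed with 8, 5 and 7 reads in the shControl libraries and 11, 13 and 11 reads in the shArl4c libraries. This is 0.591, 0.336 and 0.579 CPM in the shControl libraries and 0.799, 0.974 and 0.842 CPM in the shArl4c libraries. The groups did not overlap, but the gene was under the level required for testing and did not pass when the filter was dropped.

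Enzymes and helicases that bind RNA were represented by 6 members, and all 6 rose, by a median of 0.80 on the log2 scale. Helz2, a helicase and coactivator, had the smallest p of all members. It stood at 67.4, 65.5 and 65.9 CPM in the shControl libraries and 136, 135 and 129 CPM in the shArl4c libraries, 2.01-fold higher (95% interval of the log2 difference 0.91 to 1.09, limma adjusted p = 1.30e-12). Zbp1, which senses Z-form RNA and can start cell death, was measured at 2.80, 2.56 and 2.48 CPM in the shControl libraries and 9.80, 11.5 and 11.1 CPM in the shArl4c libraries. This was one of the 5 largest rises, 4.14-fold (log2 difference 1.71, SE 0.13, limma adjusted p = 1.99e-09). Ddx60, a helicase at a low level, rose 3.18-fold from a mean of 1.54 ± 0.179 to 4.89 ± 0.982 CPM.

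The other 3 members of this role stood above 50 CPM in shControl. Eif2ak2 encodes PKR, a kinase that halts translation on binding double-stranded RNA, and rose 1.51-fold from a mean of 68.1 ± 2.37 to 103 ± 3.11 CPM. Adar, which edits double-stranded RNA and so keeps the cell's own RNA from being sensed, rose 1.52-fold from a mean of 50.99 ± 3.42 to 77.5 ± 0.496 CPM. Znfx1 rose 1.46-fold from a mean of 51.8 ± 1.68 to 75.4 ± 1.07 CPM. Their adjusted p in limma ran from 8.76e-09 to 5.46e-08, and in all 3 the groups did not overlap. In GENCODE vM21, 16.8% of the exon bases of Adar overlap Chrnb2 on the opposite strand.

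Among the other ubiquitin ligases, all 3 members rose. Trim30a, which dampens signalling by Toll-like receptors, had the second largest rise of all members on the log2 scale. It was measured at 3.40, 2.76 and 3.56 CPM in the shControl libraries and 15.5, 13.9 and 12.7 CPM in the shArl4c libraries, 4.33-fold higher (log2 difference 1.83, SE 0.12, limma adjusted p = 5.67e-10). Herc6 stood at 18.6, 17.7 and 16.4 CPM in the shControl libraries and 32.3, 32.8 and 28.2 CPM in the shArl4c libraries and rose 1.77-fold (log2 difference 0.79, SE 0.08, limma adjusted p = 1.26e-07). Its reads may be shared too, since 12.5% of the 50-base stretches of its transcripts occur in other genes, most of them in Gm45193. Trim21, a receptor for antibodies inside the cell, stood at 3.84, 4.03 and 5.38 CPM in the shControl libraries and 6.17, 6.60 and 6.58 CPM in the shArl4c libraries. The groups did not overlap, but shControl 3 lay close to the shArl4c libraries, and the call (log2 difference 0.47, SE 0.14, limma adjusted p = 0.0101) was lost without shControl 1 (adjusted p = 0.0634) or shControl 2 (adjusted p = 0.0539) in limma and with DESeq2 (adjusted p = 0.0549).

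Of the remaining genes, Lgals3bp, a secreted galectin-binding glycoprotein, stood at 78.9, 73.5 and 78.4 CPM in the shControl libraries and 144, 128 and 151 CPM in the shArl4c libraries and rose 1.83-fold (log2 difference 0.86, SE 0.06, limma adjusted p = 1.10e-09). Sp100, a component of nuclear bodies that restrain viral DNA, was measured at 1.77, 1.75 and 1.82 CPM in the shControl libraries and 8.28, 7.80 and 7.42 CPM in the shArl4c libraries. It rose 4.40-fold (log2 difference 1.67, SE 0.13, limma adjusted p = 7.24e-09), and the lowest shArl4c library held 4.08 times the highest shControl library. Xaf1, which binds the apoptosis inhibitor XIAP, rose 1.30-fold from a mean of 35.8 ± 2.17 to 46.6 ± 2.82 CPM (limma adjusted p = 1.14e-04).

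**Figure D3:**
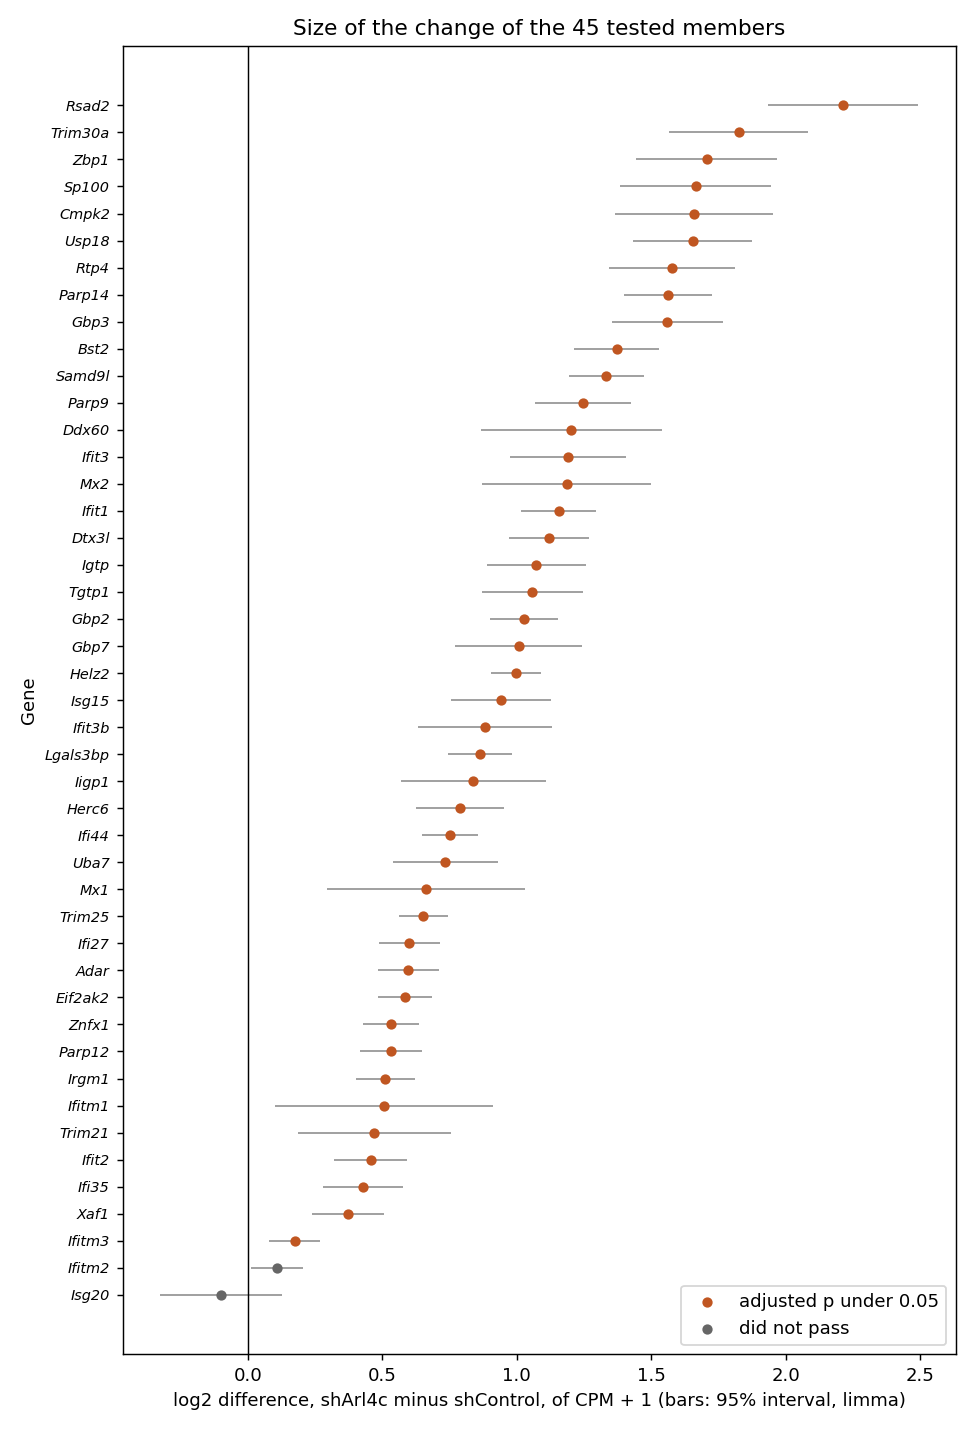
log2 difference of CPM + 1, shArl4c minus shControl (horizontal axis), of each of the 45 tested members (vertical axis, sorted by size). Points are estimates, bars are 95% intervals from limma before adjustment, and grey points did not pass the test. The estimates run from -0.10 in Isg20 to 2.21 in Rsad2.

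Members with a low CPM in shControl had the larger ratios of means. These levels are not divided by gene length, and the order per kilobase differs. In shControl, Helz2 at 66.3 CPM ranked 19 per kilobase, while Isg15 at 11.9 CPM ranked 10. The 13 tested members under 5 CPM in shControl had ratios of 1.46 to 6.94, with a median of 3.18. The 22 members from 5 to 50 CPM had a median of 2.17 and a range of 0.925 to 3.54, and the 10 members at 50 CPM or more had a median of 1.51 and a range of 1.08 to 2.01. The ratio and the level share the shControl values, so this is a description and was not tested. Rsad2, Trim30a, Zbp1, Sp100 and Cmpk2, the 5 largest rises on the log2 scale, were all under 5 CPM in shControl.

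**Figure D4:**
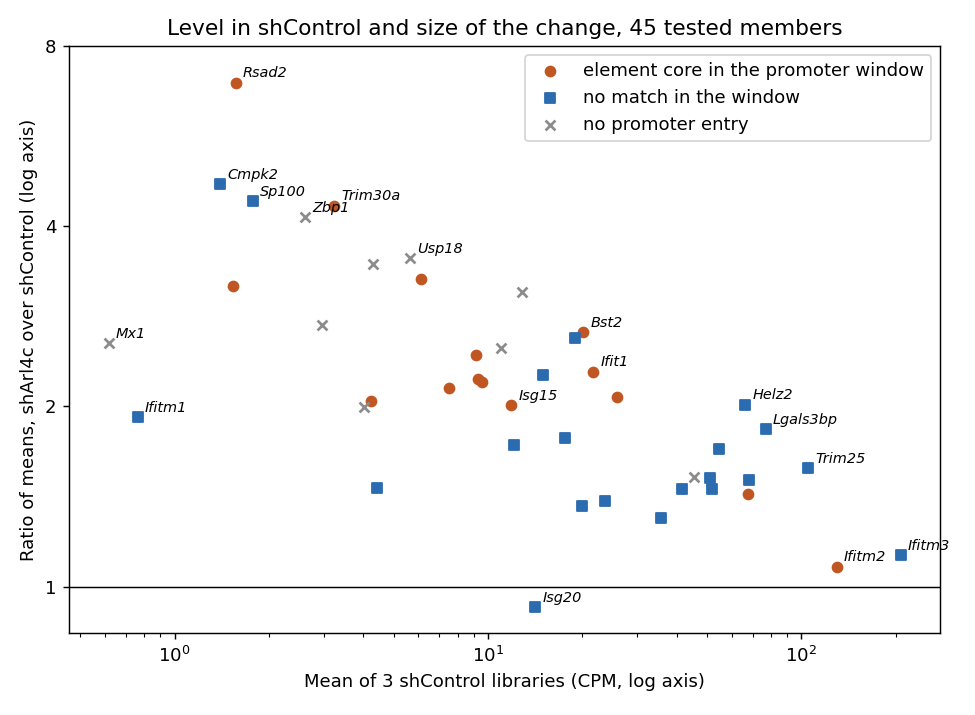
Ratio of the mean of 3 shArl4c libraries to the mean of 3 shControl libraries (vertical axis, logarithmic) against the shControl mean in CPM (horizontal axis, logarithmic) for the 45 tested members. Colour and shape show whether the RefSeq promoter window holds the element core. The highest point is Rsad2 at a ratio of 6.94, and the point farthest to the right is Ifitm3 at 1.13.

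Levels can be compared between genes only per length. Divided by the longest coding transcript of each gene in GENCODE vM21, Ifitm3 was highest in both groups, at 306 CPM per kilobase in shControl and 346 in shArl4c, followed by Ifitm2 at 198 and 214 and Ifi27 at 46.6 and 71.1. Bst2 moved from the sixth to the fourth place, from 25.4 to 67.7 CPM per kilobase. Isg15 stood at 15.7 and 31.5 CPM per kilobase. At the other end, Slfn5, Mx1 and Ddx60 stayed the lowest 3 in both groups, with Mx1 at 0.182 and 0.464 CPM per kilobase. The summed CPM of the 46 members was 1299, 1286 and 1337 CPM in the shControl libraries and 2184, 2063 and 2105 CPM in the shArl4c libraries, 1.62-fold higher in shArl4c.

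The library that stood apart, shArl4c 3, was the lowest of its group in 18 and the highest in 10 of the 45 tested members. Without it, 42 of 44 tested members were higher. Of 17 leukocyte markers, 9 were in the table and summed to 7.20 to 8.56 CPM in shControl and 9.73 to 11.1 CPM in shArl4c. The macrophage marker Cd68 was higher in shArl4c, at 5.77 ± 0.207 against 2.79 ± 0.397 CPM (limma adjusted p = 6.98e-05). It was 1 of 3 tested markers of the list, and the other 2, Csf1r (log2 difference -0.01) and Lyz2 (-0.16), did not pass. By contrast Ptprc, the pan-leukocyte marker, had 2, 2 and 0 reads in the shControl libraries and 0, 1 and 1 reads in the shArl4c libraries. Their part in the result was not tested.

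Other genes of the interferon pathway and family relatives of the members were counted in 6 lists of 112 genes, of which 80 were tested. The relatives, listed by family, made up 51 of the 112 genes and 30 of the 80 tested. In all, 51 tested genes rose, 18 of them relatives, 4 fell and 25 failed the test. Their median log2 difference was 0.53, and the call shares to set beside these counts are 18.9% higher and 18.0% lower over all tested genes. Among the genes that rose, Oas1g, Oasl1, Nlrc5 and the relatives Gbp5, Sp110 and Trim30d had shControl means of 0.334 to 0.913 CPM. They passed the filter of 1 CPM only through their shArl4c levels, so their calls are not independent of it. The counts per list include them. Of the 9 tested genes of the list led by the OAS enzymes, which are switched on by double-stranded RNA, 8 rose and none fell, and the median log2 difference was 1.87. Oasl2 rose 3.84-fold from a mean of 15.6 ± 0.716 to 59.999 ± 1.44 CPM and Oas3 13.1-fold from a mean of 2.02 ± 0.433 to 26.5 ± 0.885 CPM. Of 10 tested nucleic acid sensors and adaptors, 6 rose and none fell, led by the RNA sensor Ifih1, 2.73-fold from a mean of 6.18 ± 0.216 to 16.9 ± 0.918 CPM, and its relative Dhx58, 2.55-fold from a mean of 8.76 ± 0.618 to 22.3 ± 2.01 CPM. Of 10 tested IRF and STAT factors, 7 rose and none fell. Stat2 rose 1.67-fold from a mean of 48.96 ± 2.69 to 81.8 ± 4.57 CPM. Of 11 genes of class I presentation 10 rose, among them H2-D1 (2.31-fold), whose division of reads with its near relatives is uncertain, and the peptide transporter gene Tap2 (2.30-fold).

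Genes that act before the members include the interferons and the proteins that receive them. No interferon gene reached the level required for testing. Of the 10 tested genes for interferon receptors, JAK kinases and SOCS proteins, 2 rose, 4 fell and 4 failed the test. The median log2 difference was -0.07. The receptor kinase gene Jak2 was 1.29-fold lower, from a mean of 101 ± 3.18 to 78.2 ± 1.52 CPM (limma adjusted p = 3.45e-06). The feedback inhibitor gene Socs3 rose 1.30-fold from a mean of 47.5 ± 1.95 to 61.8 ± 0.948 CPM (limma adjusted p = 1.31e-05). Socs1 of the same list, also named after seeing its values, did not pass (log2 difference 0.09, limma adjusted p = 0.589). Jak1 (-0.21 on the log2 scale), Ifnar1 (-0.20) and Ifngr2 (-0.20) also fell, and Tyk2 (0.21) rose. The choice to name these 4 was made after seeing their values. With limma without trend and robust moderation, or without shArl4c 4, 2 genes of the 6 lists fell in place of 4. Of the interferon genes listed, Ifnk was in the table, with 5, 6 and 3 reads in the shControl libraries and 0, 2 and 4 in the shArl4c libraries. The other listed interferon genes (Ifnb1, Ifna2, Ifna4, Ifne, Ifng, Ifnl2 and Ifnl3) were looked for and not found in the table. Further interferon genes were not listed. No gene in the table had fewer than 6 reads over all libraries, so an absent gene may still have had a few reads.

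Relatives of the members from the same families are already part of the totals given above for the other lists. Of 30 tested, 18 rose, none fell and 12 failed the test, and the median log2 difference was 0.44. Parp10 rose 2.02-fold from a mean of 34.03 ± 2.71 to 68.6 ± 2.62 CPM and the IRG gene Irgm2 2.01-fold from a mean of 18.1 ± 1.07 to 36.3 ± 2.36 CPM. Whether the shares differ between members and relatives was not tested, since both sets were chosen with results of these data known.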

How the data were processed

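RNA from 6 mDE6 samples was sequenced from directional libraries, per the labels' protocols. The authors deposited 1 table of CPM values per gene, scaled to a normalized library size and made with Trimmomatic 0.38, RSEM 1.3.0, Bowtie2 and edgeR on GRCm39, per the submitters' processing notes. Their order and settings are not given in the sources used here. Every value was a whole multiple of 1 read (100% of values, tolerance 0.001), so reads could be recovered. Columns were matched to groups, not to single samples, by the hairpin in their names.

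Symbols came from a GENCODE vM21 name table (21880 of 22032 matched). Values of genes averaging at least 1 CPM were fitted as log2(CPM + 1) with limma 3.58.1 (trend, robust) in R 4.3.3. The fit was tested on simulated counts. Alternatives were other pseudocounts, filters and scalings, edgeR 4.0.16 and DESeq2 1.42.0 on recovered reads, and leaving out each library.

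The members and lists were chosen with earlier results of these data known. Values per library are given for the member with the smallest p and the member with the highest CPM of each role, the 5 largest rises, members that did not pass and near-identical pairs. Of the other lists, the 2 genes with the smallest p are named, apart from 1 that is not reported here. A planned comparison of protein sequences was not made, and 50-base stretches shared between transcripts were counted in its place, chosen after seeing the data.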

Additional observations from a re-analysis of the deposited data

How the results depend on the processing

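The count of members higher in shArl4c, 43 of 45, ran from 38 (of 40 tested, mean of at least 5 CPM) to 44 (quantile normalization) over the alternatives and from 41 to 43 when each library was left out in turn, and no alternative called a member lower. Single members kept their direction in every alternative fit. Their side of the threshold changed in 14 of 713 such fits, all of them in Ifitm1, Ifitm2, Ifitm3 and Trim21. Of all tested genes, 5445 changed, with 4347 to 6625 when a library was left out and 4108 with DESeq2. Of the other pathway genes and family relatives, 51 rose (36 to 51 over the alternatives) and 4 fell. The count that fell was 2 without trend and robust moderation, 2 to 5 over all alternatives and 2 to 4 when a library was left out. The cause was not tested. The count of members whose groups do not overlap was 42 to 44 under other scalings, and 19 of 39 members held the element core when the window reached 50 bases past the start. No paired analysis was possible because the deposited columns number the shArl4c libraries 2 to 4, which do not match the replicate numbers of the samples. Depth limits Slfn5, Ifitm1 and Mx1, with at most 25 reads in any library.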
